A study of Mus musculus with 11 samples.

Results

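Chromatin and DNA methylation regulators are described here across basal and luminal cells of terminal end buds (TEBs) and ducts of the pubertal mouse mammary gland. The members are 39 genes of 27179 in the count table, chosen by name for what they do and matched by Entrez identifier, and all 39 were found. They comprise 3 genes of maintenance DNA methylation, 2 de novo DNA methyltransferases, 3 TET enzymes, 4 genes of Polycomb repressive complex 2 (PRC2), 6 of PRC1, 8 histone deacetylases, 6 SWI/SNF subunits, 4 histone demethylases, 2 histone methyltransferases and 1 histone chaperone. Sorted cells from C57BL/6 Ecadherin-GFP females aged 5 weeks were profiled by bulk RNA-seq of polyA RNA. GFP guided the microdissection of TEBs and ducts. In each structure Lin–CD29+CD24+ epithelial cells were then sorted by the reporter, which is bright in luminal cells (Ecad-GFP hi) and dim in basal cells (Ecad-GFP lo), so that all groups share the reporter, the strain and the age. Basal duct, basal TEB and luminal TEB have 3 libraries each, and luminal duct has 2 (replicates 1 and 3), because the authors discarded a sample with few cells. Each library is a pool of at least 2 mice.

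DNA methylation on CpG sites is copied after replication by Dnmt1, which Uhrf1 recruits to hemimethylated DNA, set de novo by Dnmt3a and Dnmt3b, and oxidised by the TET enzymes on the way to its removal. PRC2 places the repressive H3K27 methyl mark through Ezh1 or Ezh2, PRC1 reads it through its Cbx subunits and ubiquitinates H2A, histone deacetylases remove acetyl groups, and SWI/SNF complexes move nucleosomes with Smarca2 or Smarca4 as the motor. The mammary epithelium is bilayered, with contractile basal cells around luminal cells, and TEBs are the proliferative tips from which ducts extend in puberty.

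The libraries held 27989137 to 49221436 counts, of which mitochondrial genes took 4.34% to 37.5%. The share was highest in basal TEB replicate 1 (37.5%) and luminal duct replicate 3 (28.5%) and the replicates varied widely (common biological coefficient of variation 0.704). Keratin and contractile markers fitted the sort, with summed levels of 7 basal markers at 5342 to 19176 CPM (normalised read counts relative to library size, after TMM scaling) in basal libraries and 14.7 to 248 CPM in luminal libraries. The sum of 9 luminal markers was 12747 to 19451 CPM in luminal and 335 to 679 CPM in basal libraries. Basal duct replicate 2 had 172 CPM over 4 endothelial markers, against 11.1 and 19.2 CPM in the other basal ducts, and was also highest of these for the sums of 4 adipocyte (184 against 0.479 and 10.7 CPM), 7 immune (136 against 46.8 and 33.0 CPM) and 5 fibroblast markers (581 against 362 and 337 CPM). Luminal duct replicate 3 had 196 CPM over the immune markers, against 12.9 CPM in replicate 1, 127 against 5.99 CPM over the fibroblast and 75.1 against 0 CPM over the adipocyte markers. In that library Cd74 was at 136 CPM and Ptprc at 26.5 CPM, with Cd3e and Csf1r at 0. Fabp4 made up almost all of the adipocyte sum in basal duct replicate 2 (179 CPM) and all in luminal duct replicate 3 (75.1 CPM). Adipoq and Plin1 were at 0 in both. Pools from separate mice are the replicates, and p-values measure the spread between these pools.

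Promoter sequences are shown for 4 of the 6 members that carry an E2F-type word, namely those whose levels followed the proliferation genes most closely across libraries, as given further on for all 6. E2F factors bind such words in genes of the S phase. The words searched were TTTCCCGC, TTTCGCGC, TTTGCCGC and TTTGGCGC on both strands, in RefSeq windows of 300 bases (250 before and 50 after each start, GRCm38.p6), and none of these words contains another. Of 35 members with a window, 6 held a word in at least 1 window, namely Ezh2, Uhrf1, Hells, Dnmt1, Suz12 and Arid1a. Among all genes with a window the share was 2.60%. Of windows with 20 or more CpG sites, 5.15% held a word over all genes and 18.2% over members (6 of 33 windows). Members had 45 windows in all, so that most but not all were CpG-rich in this sense. Asf1b, which acts at replication, and Eed held no word in their windows. The words were chosen after the levels were seen, and the members with earlier results known. The shares are therefore a description and were not tested. Capitals mark the word or its reverse complement, and each window is read 5′ to 3′ on the strand of the gene. The Ezh2 window is chr6:47594981-47595280 (minus strand), with the word starting 3 bases after the first base of the transcript. The Uhrf1 window is chr17:56304063-56304362 (plus strand), with the word 185 bases before the start. The Hells window is chr19:38930740-38931039 (plus strand), with the word 62 bases before the start. The Dnmt1 window is chr9:20952574-20952873 (minus strand), with a word 219 bases before and another 33 bases after the start.
Ezh2: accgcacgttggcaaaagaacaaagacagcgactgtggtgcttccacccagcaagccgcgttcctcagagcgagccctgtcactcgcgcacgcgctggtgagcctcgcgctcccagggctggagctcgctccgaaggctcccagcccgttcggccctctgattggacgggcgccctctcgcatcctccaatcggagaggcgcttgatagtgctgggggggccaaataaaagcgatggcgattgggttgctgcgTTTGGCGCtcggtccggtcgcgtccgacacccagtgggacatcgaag
Uhrf1: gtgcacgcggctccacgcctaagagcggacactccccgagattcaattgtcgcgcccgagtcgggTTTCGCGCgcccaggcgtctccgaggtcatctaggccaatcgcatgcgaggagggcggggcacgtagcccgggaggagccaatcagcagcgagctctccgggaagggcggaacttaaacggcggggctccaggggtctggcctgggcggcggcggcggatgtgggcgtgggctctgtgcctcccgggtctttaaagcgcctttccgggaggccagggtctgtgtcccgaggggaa
Hells: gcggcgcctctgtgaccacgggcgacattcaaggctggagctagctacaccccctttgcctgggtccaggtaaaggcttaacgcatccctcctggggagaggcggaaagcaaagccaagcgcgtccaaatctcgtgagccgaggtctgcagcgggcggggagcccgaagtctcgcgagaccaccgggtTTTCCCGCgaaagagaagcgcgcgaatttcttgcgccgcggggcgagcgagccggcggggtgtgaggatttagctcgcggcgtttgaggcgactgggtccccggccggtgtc
Dnmt1: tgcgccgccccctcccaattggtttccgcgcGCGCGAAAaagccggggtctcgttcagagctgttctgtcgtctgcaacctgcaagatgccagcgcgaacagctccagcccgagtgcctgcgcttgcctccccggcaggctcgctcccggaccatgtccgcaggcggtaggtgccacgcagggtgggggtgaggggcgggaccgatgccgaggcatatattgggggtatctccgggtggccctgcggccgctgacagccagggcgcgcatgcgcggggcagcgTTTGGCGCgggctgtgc
Dnmt1 and Uhrf1 have other annotated start sites whose windows held no word. A match describes letters and was not tested as a binding site.

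Levels of different members can be compared only per length, as RPKM, the CPM divided by the gene length in kilobases. By the mean RPKM over the 4 groups, Hdac2 (64.5), Hdac1 (62.3) and Hdac3 (55.2) stood highest, followed by Smarcb1 (46.4) and Kdm1a (43.5). Kdm1a overlaps another counted gene, Luzp1, as given further on. The order of the first 3 depended on the cell type. In basal duct, Hdac2 was at 65.1 ± 6.95, Hdac3 at 49.7 ± 3.62 and Hdac1 at 34.5 ± 4.57 RPKM (SD, n = 3), whereas in luminal TEB Hdac1 led with 83.4 ± 7.50 RPKM, and Hdac3 (50.3 ± 0.918) and Hdac2 (48.8 ± 0.943) lay close together. The lowest members were Dnmt3b (1.99), Tet1 (1.58) and Hdac9 (0.229 RPKM). Hdac9, a class IIa deacetylase, was all but absent, with 0 to 3 counts in 7 libraries, 26 to 66 counts in 3 and 146 counts in luminal duct replicate 3, so no fold is given for it.

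Basal and luminal cells differed in 8 members in ducts and in 8 in TEBs. In both structures Smarca2, an ATPase of SWI/SNF, and Tet1, which oxidises methylated cytosine, were higher in basal cells, whereas the deacetylases Hdac1, Hdac5 and Hdac11 were higher in luminal cells. Dnmt3a, Ezh2 and Cbx2 also passed as higher in basal cells of ducts but not of TEBs, and Hdac2 and Smarcb1 as higher and Ezh1 as lower in those of TEBs but not of ducts. The difference between the structures was called for no member (the interaction, given further on). The comparison asks which regulators distinguish the epithelial layers, and genes were called by edgeR's quasi-likelihood test at a Benjamini-Hochberg adjusted p (FDR) below 0.05 over the 17370 genes that passed a filter on low counts. All 39 members passed that filter. The 8 members called in ducts are 20.5% of the members, against 22.3% of all genes tested. Of these, 5 were higher in basal cells, as were 12.6% of all genes, and 3 were lower, as were 9.71%. The 8 in TEBs are again 20.5%, against 25.1% of all genes, with 4 higher (13.2% of all genes) and 4 lower (11.8%). The median log2 fold change, basal over luminal, was 0.07 for members and 0.08 for all genes in ducts, and -0.06 and 0.04 in TEBs. The members were thus called about as often as other genes. A bulk level does not separate fewer cells of a type from less RNA per cell, and these cannot be told apart here.

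**Figure D1:**
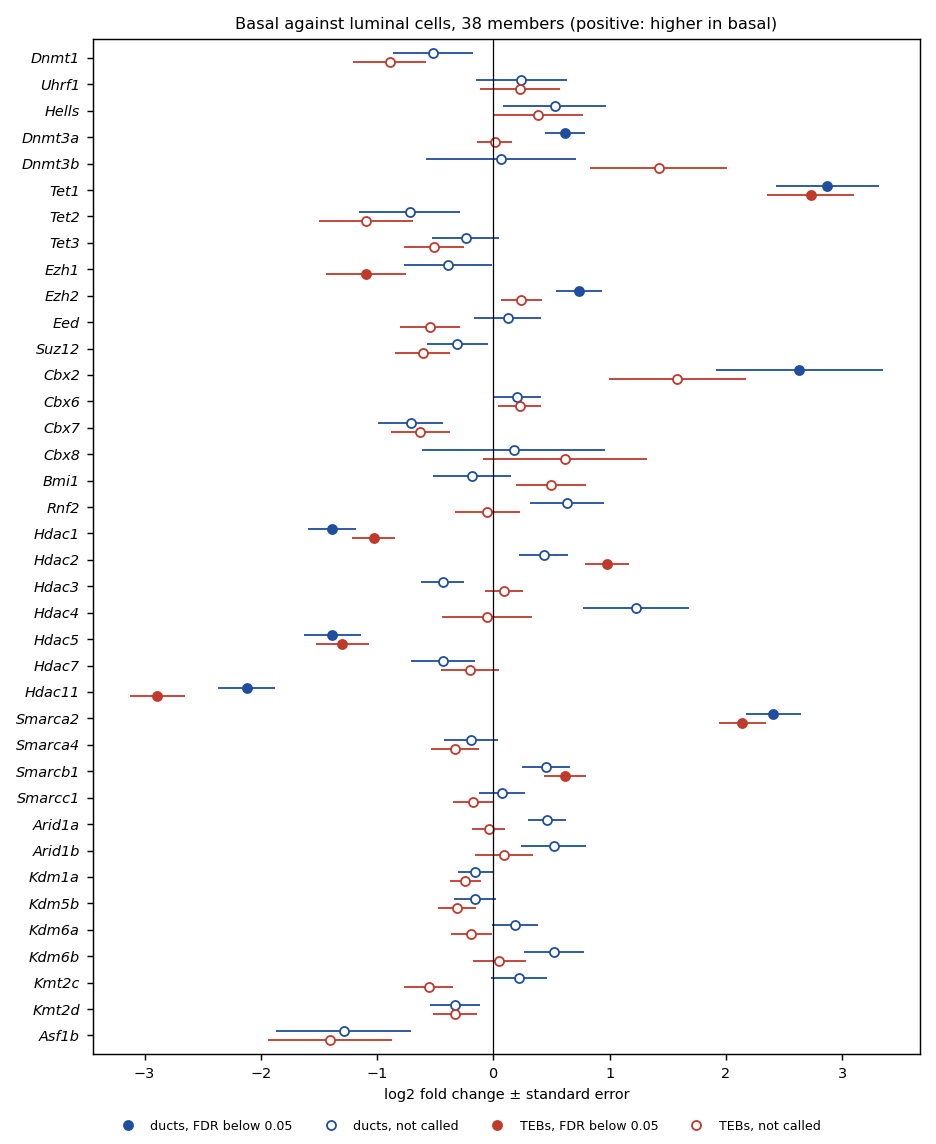
Log2 fold change of basal over luminal cells for 38 members (Hdac9 is left out for its few counts), with the standard error as a line, in ducts (blue) and TEBs (red); filled points have an FDR below 0.05. Smarca2 and Tet1 lie at 2.14 to 2.87 and Hdac11 at -2.89 to -2.12, far from the bulk of the members.

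Among the SWI/SNF subunits the ATPase pair diverged. Smarca2 (Brm) was at 266, 271 and 255 CPM in basal duct and at 167, 198 and 209 CPM in basal TEB, against 36.6 and 62.8 CPM in luminal duct and 41.1, 47.2 and 42.2 CPM in luminal TEB. Every basal library lay above every luminal one. The log2 fold change was 2.41 in ducts (SE 0.24, FDR 2.43e-05 by edgeR's quasi-likelihood test) and 2.14 in TEBs (SE 0.20, FDR 1.09e-05), or 5.31-fold and 4.40-fold. Smarca4 (Brg1), the alternative ATPase, was at 136 to 232 CPM in basal duct, 171 to 240 CPM in basal TEB, 196 and 222 CPM in luminal duct and 241 to 280 CPM in luminal TEB. Its difference was not called in ducts (log2 fold change -0.19, FDR 0.591) or TEBs (-0.33, FDR 0.276). Per length, Smarca2 made up 53.5% to 67.6% of the summed RPKM of both ATPases in basal duct and 47.7% to 50.7% in basal TEB. The share was 16.4% and 22.9% in luminal duct and 13.6% to 17.02% in luminal TEB. The ratio of the ATPases thus tilted to Smarca4 in luminal cells and was close to even in basal TEB.

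Smarcb1, a core subunit, was at 125, 86.3 and 97.3 CPM in basal TEB and at 69.4, 58.4 and 74.0 CPM in luminal TEB, without overlap. The log2 fold change was 0.61 (SE 0.18, FDR 0.0263). In ducts it was at 83.2, 72.2 and 82.3 CPM against 61.7 and 54.1 CPM, which was not called (log2 fold change 0.45, SE 0.20, FDR 0.136). The call in TEBs was lost without basal TEB replicate 1 (log2 fold change 0.44, FDR 0.0882), which had the highest mitochondrial share, and without luminal TEB replicate 1, 2 or 3 (FDR 0.0720, 0.127 and 0.0517). Smarcc1, a scaffold subunit, and Arid1a and Arid1b, the DNA-binding subunits of the BAF form, were called in neither structure. Arid1a came nearest, at 200 to 207 CPM in basal duct against 145 and 151 CPM in luminal duct (log2 fold change 0.46, FDR 0.0643).

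Of the 8 histone deacetylases, 3 were higher in luminal cells of both structures and 1 in basal cells of TEBs. Hdac11, the only class IV enzyme, was at 23.8, 29.1 and 27.2 CPM in basal duct and at 17.03, 19.6 and 11.1 CPM in basal TEB, against 107 and 126 CPM in luminal duct and 102, 136 and 117 CPM in luminal TEB. The luminal libraries were all far above the basal ones. Expression was 4.36-fold higher in luminal cells of ducts (log2 fold change -2.12, basal over luminal, SE 0.24, FDR 6.18e-05) and 7.42-fold higher in those of TEBs (-2.89, SE 0.23, FDR 3.21e-06). Hdac5, a class IIa enzyme that shuttles between nucleus and cytoplasm, was at 48.3, 81.8 and 68.0 CPM in basal duct, 60.1, 53.6 and 41.3 CPM in basal TEB, 139 and 206 CPM in luminal duct and 131, 130 and 121 CPM in luminal TEB. Again no basal library reached a luminal one, and the log2 fold changes were -1.38 (SE 0.25, FDR 0.00166) and -1.30 (SE 0.23, FDR 0.00122). Of the other class IIa enzymes, Hdac4 was at 25.6 to 39.7 CPM in basal duct against 12.0 and 15.4 CPM in luminal duct, which was not called (log2 fold change 1.23, FDR 0.0747), and Hdac7 was called in neither structure.

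Hdac1 and Hdac2, the class I enzymes of the NuRD, Sin3 and CoREST complexes, lay in opposite directions. Hdac1 was at 68.8, 58.7 and 76.7 CPM in basal duct, 64.6, 78.7 and 98.0 CPM in basal TEB, 164 and 193 CPM in luminal duct and 177, 148 and 168 CPM in luminal TEB. The luminal level was 2.62-fold higher in ducts (log2 fold change -1.39, SE 0.20, FDR 0.000401) and 2.04-fold higher in TEBs (-1.03, SE 0.19, FDR 0.00147). Hdac2 was at 181, 165 and 230 CPM in basal TEB against 98.6, 95.6 and 99.1 CPM in luminal TEB. That is 1.97-fold higher in basal cells (log2 fold change 0.97, SE 0.19, FDR 0.00232). In ducts Hdac2 was at 116, 131 and 144 CPM against 115 and 77.6 CPM. The groups nearly touched and the difference was not called (log2 fold change 0.43, SE 0.21, FDR 0.169).

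Hdac3, the class I enzyme of the NCoR corepressor, was called in neither structure. Of the summed RPKM of the 3 class I enzymes, Hdac1 took 18.2% to 24.4% in basal libraries and 42.3% to 47.5% in luminal libraries. Hdac2 took 39.6% to 52.1% in basal libraries and 17.98% to 29.3% in luminal ones. Neither share overlapped between the cell types. RefSeq lists a pseudogene of Hdac1 (Hdac1-ps), for which the count table has 0 rows, so reads shared with that copy make the Hdac1 level uncertain to an unknown degree.

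**Figure D2:**
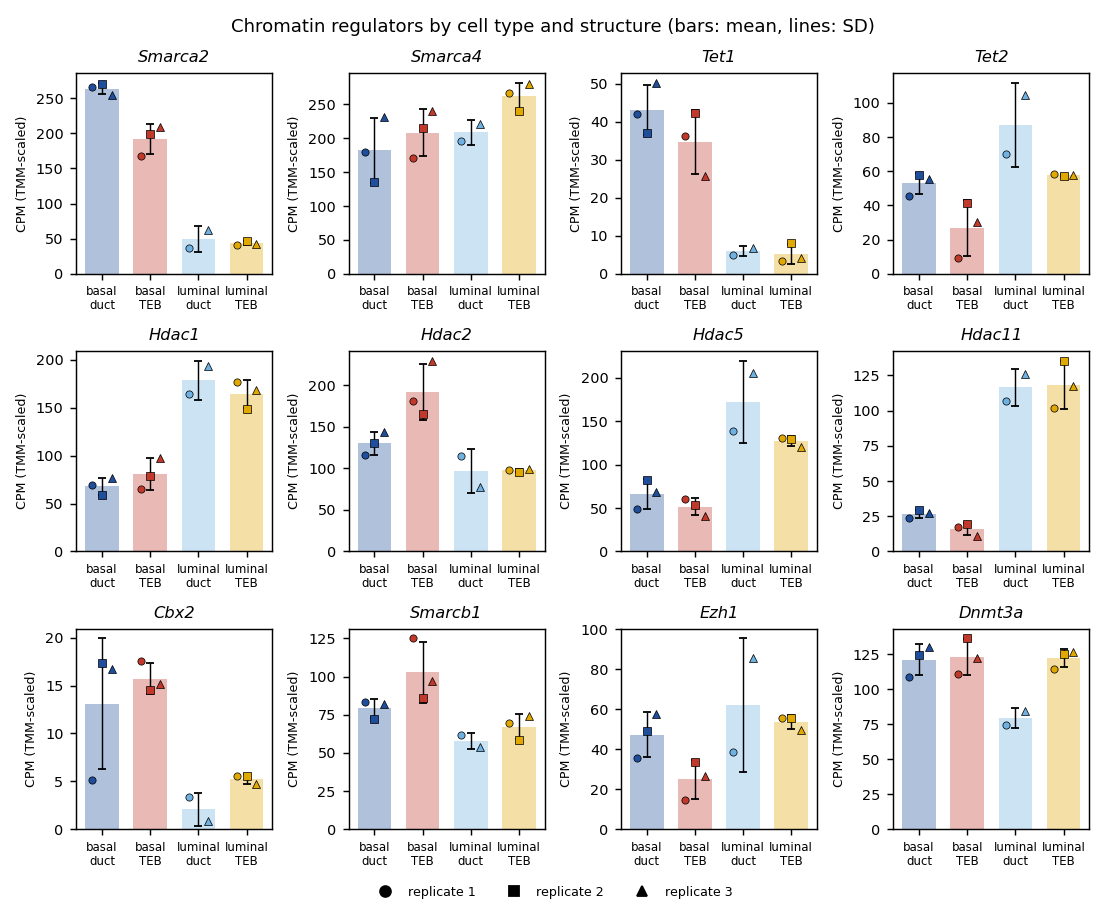
CPM of 12 members in each library (points, shaped by replicate) with the group mean (bar, from 0) and SD (line). Smarca2 and Tet1 are high in both basal groups, Hdac1, Hdac5 and Hdac11 in both luminal groups, while Smarca4 spans 136 to 280 CPM with no call.

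Of the DNA methylation genes, Tet1 showed the widest gap. It was at 42.0, 37.1 and 50.3 CPM in basal duct, 36.1, 42.2 and 25.7 CPM in basal TEB, 4.96 and 6.83 CPM in luminal duct and 3.47, 8.17 and 4.01 CPM in luminal TEB. The lowest basal library was well above the highest luminal one. Tet1 was 7.33-fold higher in basal cells of ducts (log2 fold change 2.87, SE 0.44, FDR 0.000561) and 6.63-fold higher in those of TEBs (2.73, SE 0.37, FDR 0.000182). Tet2 leaned the other way, with 45.8, 57.5 and 55.4 CPM in basal duct, 9.12, 41.3 and 30.4 CPM in basal TEB, 69.8 and 105 CPM in luminal duct and 58.4, 57.2 and 58.0 CPM in luminal TEB. Its groups did not overlap in either structure, but the log2 fold changes of -0.72 (FDR 0.264) and -1.10 (FDR 0.0670) were not called. Tet1 held 14.2% to 32.2% of the summed RPKM of the 3 TET genes in basal libraries and 1.52% to 3.29% in luminal libraries. Tet3 held the largest part in every library except basal duct replicate 2 (Tet2 42.8%, Tet3 39.2%) and luminal duct replicate 3 (Tet2 58.6%, Tet3 38.96%).

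Dnmt3a, the main de novo methyltransferase here at 69.1% to 93.3% of the summed RPKM of Dnmt3a and Dnmt3b, was at 109, 125 and 130 CPM in basal duct and 74.2 and 84.2 CPM in luminal duct. The log2 fold change was 0.61 (SE 0.17, FDR 0.0226), and both TEB groups lay at the level of basal duct, with 111, 136 and 122 CPM in basal TEB and 115, 125 and 127 CPM in luminal TEB (log2 fold change 0.01, FDR 0.972). Luminal duct had the lowest values of all groups, but luminal TEB against luminal duct was not called (log2 fold change 0.63, SE 0.17, FDR 0.0959). The only call for Dnmt3a was the one between cell types in ducts. The call was lost without basal duct replicate 3 (FDR 0.0631) and without luminal duct replicate 1 (FDR 0.0996). Dnmt3b was at 12.5 to 21.6 CPM in basal TEB and 5.22 to 6.78 CPM in luminal TEB, which was not called (log2 fold change 1.42, FDR 0.103). Dnmt1, the maintenance enzyme, was at 176, 57.7 and 112 CPM in basal duct, 150, 185 and 125 CPM in basal TEB, 172 and 158 CPM in luminal duct and 290, 268 and 295 CPM in luminal TEB. Its luminal TEB libraries were the highest of all 11, yet the difference between the cell types in TEBs stayed just short of the threshold (log2 fold change -0.89, SE 0.31, FDR 0.0565).

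In PRC2, Ezh2 was called in ducts and Ezh1 in TEBs, while the interaction was called for neither (-0.50, FDR 0.397, and -0.71, FDR 0.543). Ezh2, the methyltransferase of dividing cells, was at 66.4, 45.3 and 52.1 CPM in basal duct against 31.9 and 33.6 CPM in luminal duct, which do not overlap (log2 fold change 0.74, SE 0.20, FDR 0.0192). In TEBs it was at 77.7, 72.3 and 80.5 CPM against 65.6, 61.8 and 67.7 CPM, a gap that was not called (0.24, FDR 0.354). Ezh1, its less active paralogue common in resting cells, was at 14.4, 33.9 and 26.7 CPM in basal TEB and 55.6, 55.8 and 49.5 CPM in luminal TEB (log2 fold change -1.10, SE 0.35, FDR 0.0365). The lowest Ezh1 level was in basal TEB replicate 1, the library with the highest mitochondrial share. Leaving that library out gave -0.83 (FDR 0.0933), and the call was also lost without basal TEB replicate 3 (FDR 0.0814) or luminal TEB replicate 1, 2 or 3 (FDR 0.104, 0.0977 and 0.0791). The Ezh2 call in ducts was lost without basal duct replicate 1, luminal duct replicate 1 or luminal duct replicate 3 (FDR 0.0646, 0.0695 and 0.0563). Eed and Suz12, the other core subunits of PRC2, were called in neither structure, with Suz12 at 58.9 to 98.9 CPM in basal TEB and 123 to 139 CPM in luminal TEB (log2 fold change -0.61, FDR 0.0855).

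In PRC1, Cbx2, a chromodomain subunit, was at 5.19, 17.3 and 16.7 CPM in basal duct, 17.5, 14.5 and 15.1 CPM in basal TEB, 3.32 and 0.864 CPM in luminal duct and 5.54, 5.53 and 4.68 CPM in luminal TEB. All luminal libraries except luminal TEB replicates 1 and 2 lay below every basal library, the exception being set by basal duct replicate 1. In ducts, on 21 to 659 counts a library, Cbx2 was called with a log2 fold change of 2.63 (SE 0.72, FDR 0.0202). In TEBs it was 1.58 (SE 0.59, FDR 0.0710), which was not called. The call in ducts was lost without basal duct replicate 2 or 3 (FDR 0.0514 and 0.0579) or luminal duct replicate 3 (log2 fold change 1.97, FDR 0.0951), the library with high immune, fibroblast and adipocyte marker sums. The other PRC1 members, namely Cbx6, Cbx7, Cbx8, the stem cell regulator Bmi1 and the ubiquitin ligase Rnf2, were called in neither structure, and Cbx6 had the highest RPKM of the Cbx genes in every group.

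The remaining classes held no call between cell types. Kdm6b, which removes H3K27 methylation, was at 263, 221 and 128 CPM in basal duct, 141, 182 and 147 CPM in basal TEB, 134 and 150 CPM in luminal duct and 155, 150 and 149 CPM in luminal TEB. Its basal duct libraries spanned the other groups. Kmt2d, an H3K4 methyltransferase of enhancers, was at 150, 117 and 158 CPM in basal duct, 121, 142 and 101 CPM in basal TEB, 150 and 206 CPM in luminal duct and 163, 157 and 137 CPM in luminal TEB, with overlap in both structures. Asf1b, a chaperone that hands new H3-H4 to the replication machinery, was lower in basal cells by value, at 6.12, 9.39 and 14.3 CPM in basal TEB against 26.1, 24.4 and 28.6 CPM in luminal TEB (log2 fold change -1.41, SE 0.54, FDR 0.0768).

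The share of members whose groups do not overlap was larger than that of all genes above in ducts and below in TEBs. It was slightly smaller in the other directions, and larger in either direction together. In ducts 12 of 39 members lay above (24.8% of all genes did) and 8 below (21.2%) in basal libraries, against 46% of all genes in either direction. In TEBs 8 lay above (22.6%) and 14 below (27.2%), against 49.8% in either direction.

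Between TEBs and ducts 1 member was called. Ezh2 rose in luminal cells of TEBs, and no member was called in basal cells. Genes that act at replication (Uhrf1, Hells, Asf1b and, less so, Dnmt1) had higher means in TEBs of both cell types without passing the test, and Cbx7 had lower means in both. The comparison asks which regulators differ between the growing tip and the duct behind it. In basal cells 0 of 39 members were called, against 1.32% of all genes. An unadjusted p below 0.05 was found for 13 of the 39, a larger share than the 14.5% of all genes. In luminal cells 1 of 39 members was called (2.56%), against 1.41% of all genes (0.639% higher and 0.771% lower in TEBs). There 11 of the 39 had an unadjusted p below 0.05, again a larger share than the 16.6% of all genes. The members were chosen with earlier results of these data known. The median log2 fold change, TEB over duct, was 0.02 for members and -0.03 for all genes in basal cells, and 0.20 and 0.04 in luminal cells. The counts of calls varied with the test, from 0 to 4 in basal and 0 to 4 in luminal cells over the alternatives tried.

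**Figure D3:**
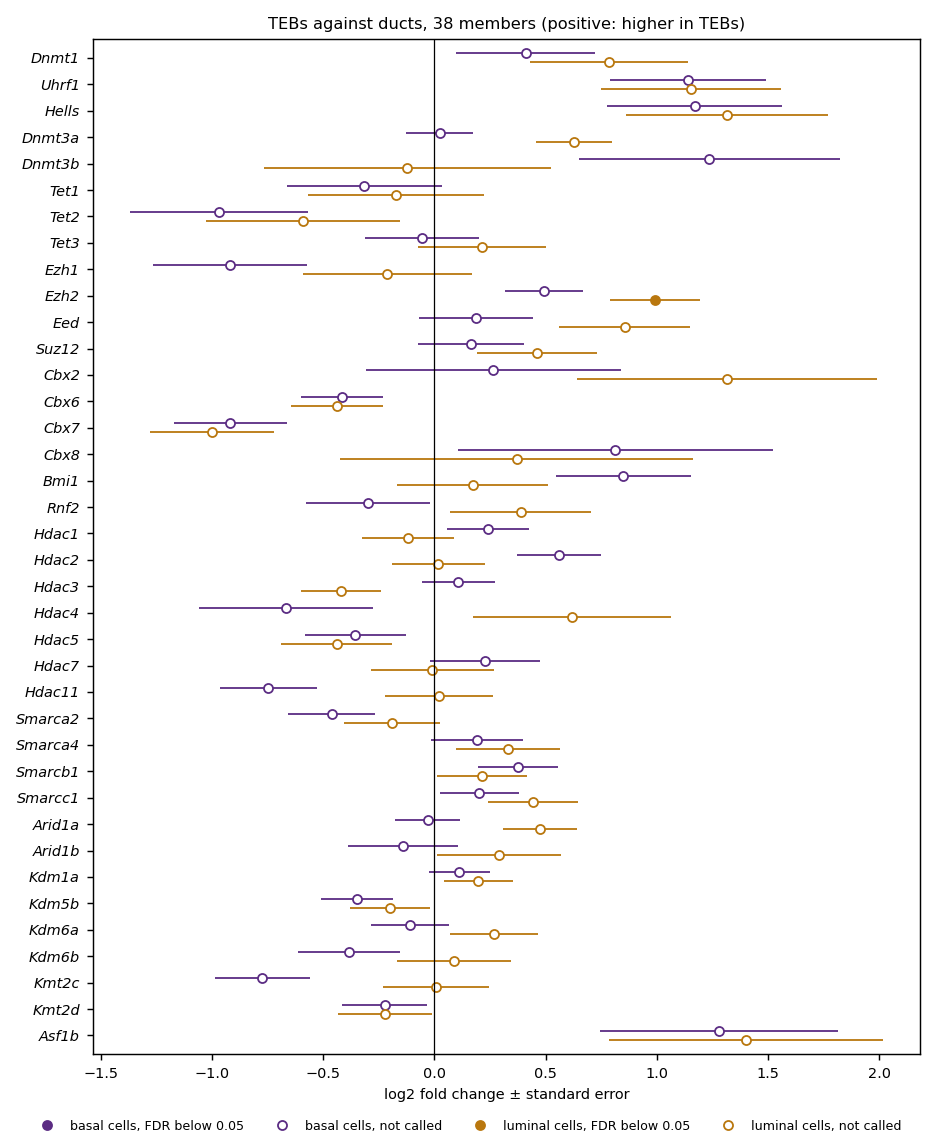
Log2 fold change of TEBs over ducts for 38 members (Hdac9 is left out), with the standard error as a line, in basal (purple) and luminal cells (orange). The 1 filled point, with an FDR below 0.05, is Ezh2 in luminal cells at 0.99, and Uhrf1, Hells and Asf1b lie at 1.14 to 1.40 in both cell types with standard errors of 0.35 to 0.62.

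Ezh2 was at 65.6, 61.8 and 67.7 CPM in luminal TEB and at 31.9 and 33.6 CPM in luminal duct. The groups were far apart and each was tight, giving a 1.99-fold rise (log2 fold change 0.99, SE 0.20, FDR 0.0380 by edgeR's quasi-likelihood test). In basal cells Ezh2 was at 77.7, 72.3 and 80.5 CPM in TEBs and 66.4, 45.3 and 52.1 CPM in ducts, also without overlap, and was not called (0.49, SE 0.18, FDR 0.227). The difference between both changes was itself not called (interaction -0.50, SE 0.26, FDR 0.397). The luminal call had a narrow margin, and was lost without basal duct replicate 3, basal TEB replicate 3, luminal duct replicate 3 or luminal TEB replicate 1, 2 or 3 (FDR 0.0590, 0.0600, 0.0993, 0.131, 0.102 and 0.161), while the log2 fold change stayed at 0.94 to 1.03. Per length, Ezh2 made up 63.5% to 68.2% of the summed RPKM of Ezh1 and Ezh2 in luminal TEB and 38.1% and 56.6% in luminal duct. In basal cells the share was 77.0% to 89.4% in TEBs and 58.6% to 74.7% in ducts. Ezh2 thus held the larger part in every library except luminal duct replicate 3.

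Among the maintenance methylation genes, Uhrf1 was at 76.4, 28.02 and 85.0 CPM in basal duct and 106, 137 and 175 CPM in basal TEB (log2 fold change 1.14, SE 0.35, FDR 0.166). In luminal cells it was at 42.4 and 64.6 CPM in ducts and 107, 116 and 133 CPM in TEBs (1.15, SE 0.40, FDR 0.178). All TEB libraries were above all duct libraries, yet no call was made. Hells, a remodeler needed for DNA methylation, was at 37.8, 11.4 and 41.5 CPM in basal duct, 73.2, 57.4 and 73.8 CPM in basal TEB, 16.1 and 25.9 CPM in luminal duct and 42.4, 52.5 and 61.8 CPM in luminal TEB. Its log2 fold changes were 1.17 in basal (SE 0.39, FDR 0.206) and 1.32 in luminal cells (SE 0.46, FDR 0.174). Basal duct replicate 2, which had high endothelial, adipocyte and immune marker sums, held the lowest value of both genes. Leaving it out gave basal values of 0.79 for Uhrf1 (FDR 0.297) and 0.78 for Hells (FDR 0.332), and the luminal ones, whose libraries did not change, passed (FDR 0.0482 and 0.0374).

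Dnmt1 had a log2 fold change of 0.79 in luminal cells (SE 0.36, FDR 0.296) and 0.41 in basal cells (SE 0.31, FDR 0.593), the latter falling to 0.09 without basal duct replicate 2. Asf1b rested on 73 to 510 counts in basal libraries and was at 1.46, 4.84 and 6.00 CPM in basal duct and 13.3 and 6.66 CPM in luminal duct. Its TEB values, given before, were all above those of the ducts of the same cell type, with log2 fold changes of 1.28 in basal (SE 0.54, FDR 0.305) and 1.40 in luminal cells (SE 0.62, FDR 0.284). Dnmt3b was at 4.11, 7.42 and 8.39 CPM in basal duct and 21.6, 12.8 and 12.5 CPM in basal TEB (1.24, SE 0.59, FDR 0.361).

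**Figure D4:**
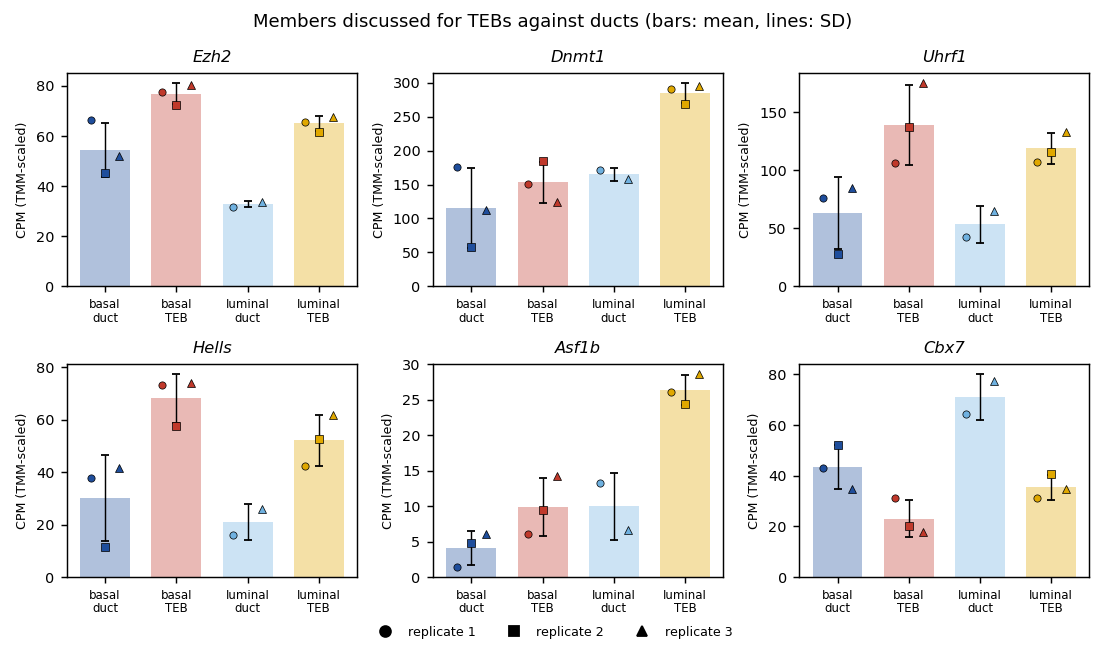
CPM of 6 members in each library (points, shaped by replicate) with the group mean (bar, from 0) and SD (line). Ezh2, Uhrf1 and Hells are higher in every TEB library than in the ducts of the same cell type, and Cbx7 is lower, with basal duct replicate 2 at the bottom for Dnmt1 (57.7 CPM), Uhrf1 (28.02 CPM) and Hells (11.4 CPM).

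Some members had lower values in TEBs. Cbx7, a PRC1 subunit that senses H3K27 methylation, was at 43.2, 52.2 and 34.7 CPM in basal duct, 31.3, 20.04 and 17.7 CPM in basal TEB, 64.5 and 77.5 CPM in luminal duct and 31.0, 40.8 and 34.7 CPM in luminal TEB. No TEB library reached a duct library of its cell type, and the log2 fold changes were -0.92 (SE 0.26, FDR 0.123) and -1.001 (SE 0.28, FDR 0.0998). Cbx7 overlaps Apobec3, which had 45867 counts against 17668 for Cbx7, and the library kit does not mark strand, so reads where the genes overlap cannot be assigned. Kdm1a and Hdac7 have the same limit, overlapping Luzp1 (57516 counts against 59006) and Slc48a1 (16810 against 19357). Kmt2c, an H3K4 methyltransferase, was at 145, 114 and 130 CPM in basal duct and 52.2, 101 and 74.9 CPM in basal TEB (-0.77, SE 0.21, FDR 0.121), and showed no such gap in luminal cells. Smarca2 was also lower in every basal TEB library than in basal duct (-0.46, SE 0.19, FDR 0.305), as was Hdac11 (-0.75, SE 0.22, FDR 0.145). Lineage markers moved with the same contrast. The 7 basal markers summed to 15553 to 19176 CPM in basal duct and 5342 to 8297 CPM in basal TEB, with 4 of 7 called lower, and to 93.0 and 248 CPM in luminal duct and 14.7 to 27.3 CPM in luminal TEB, with 6 of 7 called lower. The 9 luminal markers summed to 565 to 679 CPM in basal duct and 335 to 365 CPM in basal TEB, and 1 was called lower in each cell type. Their part in the members' values was not tested. Without overlap, 9 of 39 members lay above (8.88% of all genes did) and 8 below (11.9%) in basal TEB, against 20.8% in either direction. Both shares of members were larger than those of all genes. In luminal TEB 15 lay above (26.2%), a larger share, and 4 below (17.4%), a smaller one, against 43.7% in either direction.

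Proliferation genes moved with the same contrast. All 18 of a list of replication and mitosis genes had positive log2 fold changes in both cell types, of which 1 passed in basal cells (Birc5) and 4 in luminal cells (Mcm3, Mcm5, Mcm6 and Rrm2). Their summed level was 692 to 1550 CPM in basal duct, 1697 to 2389 CPM in basal TEB, 928 and 994 CPM in luminal duct and 2187 to 2548 CPM in luminal TEB. Across the 11 libraries, which include the differences between groups, the level followed this sum with a Pearson's r of 0.96 for Uhrf1 (Spearman's rho 0.93), 0.91 for Hells, 0.82 for Ezh2, 0.78 for Smarcc1, 0.73 for Smarca4 and 0.69 for Dnmt1, and was -0.77 for Cbx7. Of these Smarcc1, Smarca4 and Cbx7 hold no E2F-type word, and the other members with a word, Arid1a and Suz12, had an r of 0.48 and 0.43. Without basal duct replicate 2 the r of Dnmt1 was 0.44 and that of Arid1a 0.78. Dnmt3a, which holds no such word, had an r of 0.55 over all libraries and 0.86 without that one. Each r was taken on log2(CPM + 1) of the gene and of the sum. These are descriptions over libraries that share groups, cell types and scaling. Uhrf1 amounted to 4.05% to 5.83% of the sum in basal duct, 6.16% to 7.31% in basal TEB, 4.56% and 6.49% in luminal duct and 4.73% to 5.30% in luminal TEB. For Ezh2 the ratio to the sum was 3.38% and 3.44% in luminal duct and 2.66% to 2.89% in luminal TEB, so that the sum rose by more than Ezh2, although some of its genes had smaller log2 fold changes in luminal cells (Pcna 0.51, Mcm7 0.75). Whether the share of dividing cells accounts for the levels of these members was not tested.

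**Figure D5:**
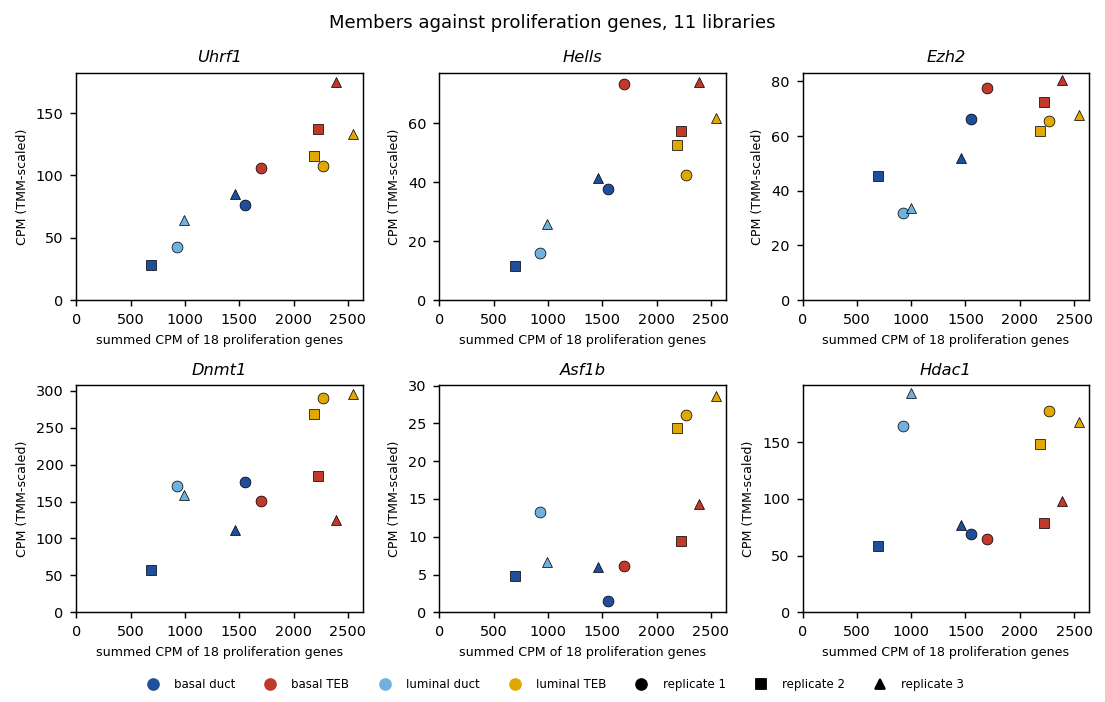
CPM of 6 members against the summed CPM of 18 proliferation genes, 1 point a library, coloured by group and shaped by replicate. Uhrf1, Hells and Ezh2 climb with the sum (r of 0.96, 0.91 and 0.82), whereas Hdac1 separates by cell type at any sum (r of 0.17). The r values are on the log2 scale, whereas the axes show CPM.

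The change from duct to TEB did not differ detectably between basal and luminal cells for any member. The interaction was called for 0 of 39 members by edgeR's quasi-likelihood test, against 0.443% of all genes. An unadjusted p below 0.05 was found for 14.7% of all genes and for 4 of the 39 members. These were Dnmt3a (basal change minus luminal change -0.60, SE 0.23, FDR 0.247), Kmt2c (-0.78, SE 0.32, FDR 0.289), Hdac11 (-0.77, SE 0.33, FDR 0.305) and Arid1a (-0.50, SE 0.22, FDR 0.311). Without luminal duct replicate 1 the interaction of Arid1b was called (-1.16, FDR 0.0290), when luminal duct is 1 library with 39.6 CPM against 73.5 to 95.7 CPM elsewhere.

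Other genes of the same pathways numbered 114 in 6 lists, of which 112 passed the filter. In basal cells of TEBs against ducts 0 rose and 1 fell, namely Gadd45b, a stress-induced gene linked to DNA demethylation, at 161, 235 and 97.0 CPM in ducts and 7.79, 30.5 and 22.3 CPM in TEBs (log2 fold change -3.02, SE 0.47, FDR 0.00872). The 1 called in basal cells is 0.893% of the 112, against 1.32% of all genes. In luminal cells 3 rose and 3 fell, or 5.36%, against 1.41% of all genes (0.639% higher and 0.771% lower in TEBs). Those that rose were Chaf1a, a subunit of the replication-coupled chaperone CAF-1 (1.72, SE 0.30, FDR 0.0206), Supt16, of the FACT chaperone (0.89, SE 0.18, FDR 0.0361), and Nsd2, an H3K36 methyltransferase (0.89, SE 0.17, FDR 0.0296). Chaf1a was at 18.8 and 12.4 CPM in luminal duct and 51.1, 44.4 and 59.2 CPM in luminal TEB. Those that fell were Gadd45g (-2.44, SE 0.46, FDR 0.0282), Gadd45a (-1.93, SE 0.33, FDR 0.0191) and Phf1, an accessory subunit of PRC2 (-1.39, SE 0.30, FDR 0.0468). For the interaction 0 of 112 were called, against 0.443% of all genes.

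Between basal and luminal cells, 14 of the 112 were higher and 9 lower in basal cells of ducts, and 11 higher and 16 lower in those of TEBs (20.5% and 24.1%). Over all genes 22.3% were called in ducts (12.6% higher and 9.71% lower) and 25.1% in TEBs (13.2% and 11.8%). The 112 were thus called about as often as other genes. Of 17 other SWI/SNF genes tested, 6 were higher and 1 lower in ducts, and 5 higher and 2 lower in TEBs. The largest among those called were Smarce1 in TEBs (log2 fold change 1.00, SE 0.23, FDR 0.00683) and Bcl7b in ducts (0.87, SE 0.27, FDR 0.0362), leaving aside Dpf1, which had no counts in luminal duct. Smarce1 was at 222, 103 and 165 CPM in basal TEB and at 79.8 to 82.7 CPM in luminal TEB. Its highest value was in basal TEB replicate 1, the library with the highest mitochondrial share. Smarcd2 was lower in both structures (-0.85, FDR 0.00429 in ducts, and -0.87, FDR 0.00182 in TEBs). Of 20 other deacetylases and corepressors, 1 was higher and 5 lower in basal cells of TEBs, led by Mta3 of the NuRD complex (-1.52, SE 0.25, FDR 0.00064), with Hdac8 higher (1.43, SE 0.38, FDR 0.0154). In ducts 1 was higher, the deacetylase Sirt1 (1.82, SE 0.51, FDR 0.0219), and 3 lower, led by Hdac10 (-1.29, SE 0.42, FDR 0.0472). Hdac10 was at 13.0, 11.7 and 10.7 CPM in basal duct and at 15.3 and 42.5 CPM in luminal duct. The high value is that of luminal duct replicate 3, the library with high immune, fibroblast and adipocyte marker sums. Among 24 other Polycomb genes the largest changes called in ducts were Yaf2 (1.39, FDR 0.0313) and Phf1 (-1.26, FDR 0.0102), and of those called in TEBs Pcgf3 was the most reduced (-0.95, FDR 0.0444). Among 12 other DNA methylation genes the largest called were Gadd45b (2.30, FDR 0.00800) and Gadd45g (-3.38, FDR 0.000277) in ducts and Gadd45g (-2.11, FDR 0.00318) in TEBs. Among 26 other histone methylation genes the largest called were Setdb1 (0.78, FDR 0.00874) and Ehmt2 (-0.72, FDR 0.00572) in ducts and Setdb1 (0.54, FDR 0.0251) and Phf8 (-1.34, FDR 0.00183) in TEBs. Among 13 chaperones and remodelers Nap1l1 was higher in ducts (0.61, FDR 0.0435) and Asf1a in TEBs (0.94, FDR 0.0387), and 0 were lower.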

How the data were processed

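The deposited values are read counts per Entrez gene, whole and not normalized, which the authors obtained by aligning paired-end reads of 80 bp to mm10 with Rsubread and counting them with featureCounts, from TruSeq RNA v2 libraries, which are not stranded. The tables of the 11 libraries equalled their columns in the table of the series, with 0 columns left unused. The deposited gene lengths (the authors' counting length in bases) were used for RPKM. Symbols from RefSeq (GRCm38.p6) matched 25275 of 27179 identifiers.

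With edgeR 4.0.16 under R 4.3.3, low genes were removed by filterByExpr at a minimum count of 10 and a minimum total of 15. Libraries were scaled by TMM and fitted with 4 groups in one model by the quasi-likelihood method, with Benjamini-Hochberg adjustment over 17370 genes at an FDR of 0.05. The study names glmFit of edgeR; the quasi-likelihood test was used here. SE was taken as the size of the log2 fold change over the square root of F. CPM are after TMM scaling. A fold is 2 to the power of the log2 fold change. Folds of genes near 0 counts are not given.

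The members and the gene lists were chosen with earlier results of these data known. Every member may be named, and values in each library are given for those called in any comparison and, in classes without a call, for the member with the highest mean log2 CPM. Members singled out beyond this rule, such as Uhrf1, Hells, Cbx7, Kmt2c and Tet2, were chosen after their values were seen. Other pathway genes are named where called between TEBs and ducts or as the largest called change of their list, except for a result that is not reported here. The E2F-type words were chosen after the levels were seen.

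Alternatives were other scalings and filters, the likelihood ratio test, DESeq2 1.42.0, limma 3.58.1 (voom), a fit of only the groups compared, the replicate number as a block, both libraries of highest mitochondrial share left out, and each library left out. Scripts were tested on simulated counts. ATAC-seq and single-cell data were not analysed here.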

Additional observations from a re-analysis of the deposited data

How the results depend on the processing

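In both structures the calls of Smarca2, Tet1, Hdac1, Hdac5 and Hdac11 between cell types held under all 21 alternatives. A set of 39 pairs of a gene and a comparison, not the 39 members, was followed over the alternatives. Of their 819 values, 741 kept their direction and their side of the threshold, 37 lost the call, 41 gained one and 0 turned direction. Small changes outside this set did turn. Between basal and luminal TEBs, Dnmt3a changed sign under 3 alternatives and Ezh2 under 1. The number of members called between basal TEB and basal duct (0) became 4 with DESeq2's Wald test, 2 with the likelihood ratio test, 2 with limma voom and 1 without both libraries of highest mitochondrial share. Between luminal TEB and luminal duct (1) it became 3 with DESeq2, 2 with the likelihood ratio test, 2 with voom, 4 in a fit of only the groups compared, 0 by library size alone and 0 without both libraries of highest mitochondrial share. Between basal and luminal TEBs (8) it became 13 with DESeq2, with voom and in a fit of only the groups compared, where the other groups do not enter the estimate of spread. The interaction needs all 4 groups and has no value there. With each library left out in turn the counts ran from 0 to 1 in basal and 0 to 4 in luminal cells for TEBs against ducts, from 6 to 11 for cell types in ducts, from 6 to 11 in TEBs and from 0 to 1 for the interaction. The 1 called in basal cells was Cbx7 without basal TEB replicate 1 (FDR 0.0442) and Kmt2c without basal TEB replicate 2 (FDR 0.0255). In luminal cells the count was 4 without luminal duct replicate 1, 3 without basal duct replicate 2, 2 without basal TEB replicate 1 and 0 without basal duct replicate 3, basal TEB replicate 3, luminal duct replicate 3 or any luminal TEB library. Where luminal duct is left with 1 library, it is assumed to vary like the other groups.

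Under scaling by library size alone the median over all genes shifted to 0.42 (log2) for luminal TEBs against ducts and to -0.35 for basal against luminal TEBs. There 2 members were higher and 6 lower in basal TEB, against 4 and 4 with TMM, and Hdac2 (0.55, FDR 0.213) and Smarcb1 (0.14, FDR 0.721) were not called. With the replicate block, members called were 0 in luminal and 0 in basal cells between TEBs and ducts, 7 between cell types in ducts, 9 in TEBs and 0 for the interaction, and Ezh2 in luminal cells (FDR 0.0601) and Cbx2 in ducts (FDR 0.0539) lost the call. Whether the replicate numbers pair the libraries is not settled. Of 15 pairs of the same number, 4 had a correlation of deviations from the group mean over 0.1 (-0.0677 to 0.163). The 30 other pairs ran from -0.163 to 0.137. With 2 libraries in luminal duct, their deviations are equal and opposite, so their correlations mirror each other and these ranges cannot decide on pairing. The cause of the changes between settings was not tested. Counts limit Hdac9, Cbx2, Cbx8, Asf1b and Dnmt3b, and 2 or 3 libraries a group limit every test.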
